A study of Mus musculus with 4 samples.

Results

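The genes described here, S1pr1, S1pr4, Klf2, Ccr7 and Cd69, act in the exit of T cells from tissues and in their recirculation through lymph nodes. They were taken by symbol, as probe sets of the arrays that carry the symbol of 1 of these genes alone. All 5 genes had such a probe set, 1 each, out of 22180 genes with a probe set of their own, and all 5 passed the filter on low values that left 13602 genes for testing. The arrays were Affymetrix whole-transcript arrays of RNA from mouse invariant natural killer T (iNKT) cells. In 2 of them the cells came from CD4-Vα14Tg mice, whose Vα14 T cell receptor α chain transgene is driven by the CD4 promoter, and in the other 2 from wild-type (WT) controls. The comparison of these mice was the question of the series. The labels give no strain, age, organ or sorting gate and do not say whether mice were pooled, so the spread between arrays of a genotype may be technical.

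T cells leave the thymus and lymphoid tissue along a gradient of sphingosine-1-phosphate (S1P), a lipid that is abundant in blood and lymph and is sensed by the receptor S1PR1. The transcription factor KLF2 drives S1pr1 in resting T cells, CD69 binds S1PR1 and takes it off the surface after activation, and CCR7 brings cells into lymph nodes toward its chemokine ligands CCL19 and CCL21. Many mature iNKT cells stay in the tissue where they lie, and CD69 is commonly found on such cells.

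The labelled cell type was checked against its markers. Zbtb16, the gene of the iNKT lineage factor PLZF, read from 11.08 to 11.39 on the 4 arrays (log2 values), and the T cell receptor complex gene Cd3e from 11.95 to 12.45, both far above the 40th percentile of named probe sets, at 4.65 to 4.69. Cd8a, which marks CD8 T cells, read from 4.38 to 4.60 and lay below that percentile on every array. Of the 13602 genes tested with limma, 265 passed at a Benjamini-Hochberg adjusted p under 0.05.

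S1pr1 and Ccr7 were about 3 times higher in CD4-Vα14Tg iNKT cells than in WT cells. Klf2, the gene of the factor that drives S1pr1, S1pr4, a second S1P receptor of lymphocytes, and Cd69, whose product removes S1PR1 from the surface, did not pass the test. Higher calls were thus made for 2 of the 5 genes and lower calls for 0, where 0.61% of all genes tested were called higher, 1.34% lower and 1.95% in either direction. The median difference of the 5 genes was 0.21 on the log2 scale, against -0.022 over all genes tested. The groups of arrays did not overlap for 4 of the 5 genes, a pattern that 39.1% of all genes tested showed. An exact two-sided permutation test of 2 against 2 arrays cannot give a p below 0.333, so the calls rest on the spread that limma shares across genes.

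S1pr1 encodes the receptor that T cells need for egress. Its log2 values were 10.01 and 9.51 on the CD4-Vα14Tg arrays (replicates 1 and 2) and 8.28 and 8.10 on the WT arrays. Every CD4-Vα14Tg array was above every WT array, with a gap of 1.23 between the nearest arrays of the genotypes. The means were 9.76 ± 0.35 and 8.19 ± 0.13 (SD, n = 2 arrays each), a log2 difference of 1.57 (95% interval 1.15 to 2.00), or 2.98-fold (limma adjusted p = 0.00833). It was the 20th largest rise of the genes tested. In bulk RNA, more cells with the transcript and more transcript per cell cannot be told apart.

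Ccr7 encodes the chemokine receptor for entry into lymph nodes, and it is high in naive T cells and low in most tissue-bound ones. Its log2 values were 9.44 and 9.24 on the CD4-Vα14Tg arrays and 7.72 and 7.86 on the WT arrays. The genotypes stood further apart than the arrays within either, with a gap of 1.38. Group means were 9.34 ± 0.14 and 7.79 ± 0.10 (SD, n = 2 arrays each), a log2 difference of 1.55 (95% interval 1.25 to 1.86), or 2.94-fold (limma adjusted p = 0.00281). The rise ranked 22nd among the genes tested. The calls of S1pr1 and Ccr7 were kept when any 1 array was left out, with limma adjusted p from 0.00557 to 0.0324 for S1pr1 and from 0.00697 to 0.0114 for Ccr7.

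**Figure D1:**
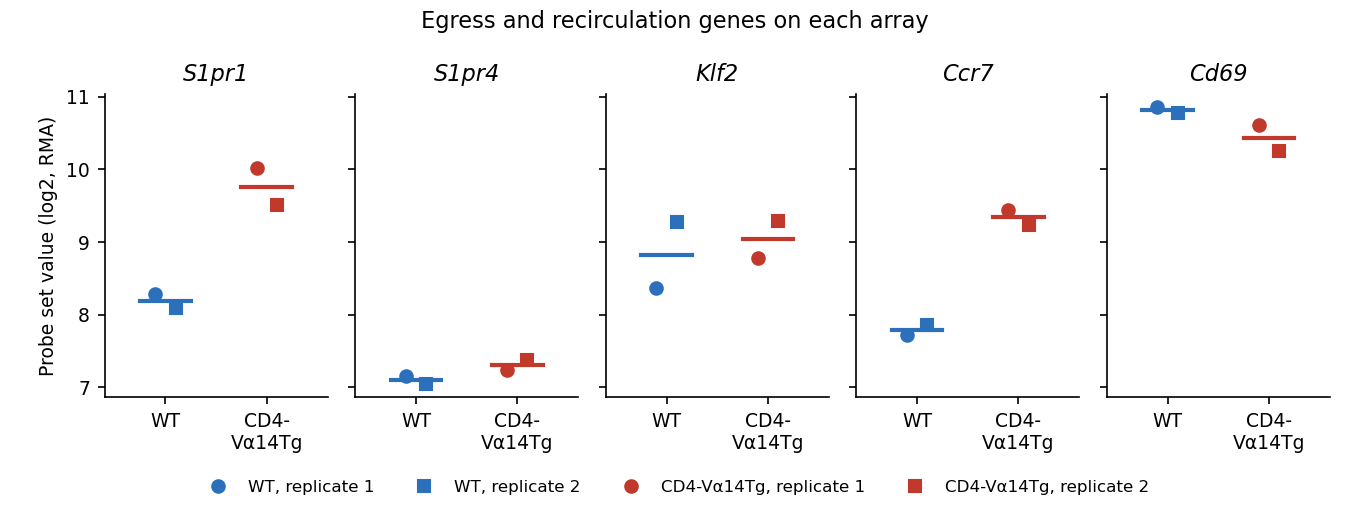
Log2 RMA value of the probe set of S1pr1, S1pr4, Klf2, Ccr7 and Cd69 on each of the 4 arrays (vertical axis), by genotype (horizontal axis). Circles are arrays numbered replicate 1, squares are arrays numbered replicate 2 and bars are group means; the values of S1pr1 and Ccr7 lie apart by 1.23 and 1.38 between the nearest arrays of the genotypes, while those of Klf2 overlap.

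Klf2 encodes the Krüppel-like factor that keeps T cells quiescent and able to recirculate. It read 8.78 and 9.29 on the CD4-Vα14Tg arrays and 8.37 and 9.28 on the WT arrays. In each genotype the array numbered 2 was the higher, and the genotypes overlapped. Means were 9.04 ± 0.36 and 8.82 ± 0.65 (SD, n = 2 arrays each), a log2 difference of 0.21 (95% interval -0.49 to 0.92; limma adjusted p = 0.910). The direction rested on single arrays: the difference was -0.24 when WT replicate 1 was left out and -0.04 for CD4-Vα14Tg replicate 2, against 0.47 for CD4-Vα14Tg replicate 1 and 0.67 for WT replicate 2. The interval leaves out neither a small fall nor a rise of up to 0.92, so these arrays do not show that Klf2 stayed level while S1pr1 rose.

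Klf2 and S1pr4 were the members whose start regions could be read, and they are shown for sequences of KLF and FOXO type, and of MEF2 type for Klf2, whose known activators include MEF2 factors. The following 250 bases end just before the transcription start of Klf2 in the RefSeq annotation (GRCm38.p6, chr8:72318812-72319061, plus strand), and a stretch of 45 bases upstream of S1pr4 (GRCm38.p6, chr10:81500220-81500264, minus strand) is given beside them. Capitals mark CTAAATTTAG, a match to the MEF2 consensus, and GGGTG, the reverse complement of CACCC, the core of sites bound by KLF factors.
Klf2: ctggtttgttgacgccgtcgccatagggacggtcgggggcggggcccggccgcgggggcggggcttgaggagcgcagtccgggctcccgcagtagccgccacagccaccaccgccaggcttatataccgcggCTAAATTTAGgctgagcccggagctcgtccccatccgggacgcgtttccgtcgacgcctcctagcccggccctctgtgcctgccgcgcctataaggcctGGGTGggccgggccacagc
S1pr4: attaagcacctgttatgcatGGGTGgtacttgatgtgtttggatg
In windows from 250 bases before to 50 bases after the start, searched on both strands, Klf2 held CTAAATTTAG at -118 to -109 and GGGTG at -19 to -15, and S1pr4 held GGGTG at -107 to -103. CACCC on either strand occurred in 57.5% of the 32851 promoter windows of that length, so it sets neither gene apart. The MEF2 consensus, which reads the same on both strands and was added after the Klf2 window had been seen, occurred in 183 windows (0.557%). TGTTTAC, a FOXO-type sequence found in 3.65% of windows on either strand, was in neither. No motif overlapped another in the sequences shown. A match only describes the letters of a window. The starts of S1pr1, Ccr7 and Cd69 were not analysed here.

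S1pr4 encodes an S1P receptor expressed mostly in blood cells. Its values were 7.24 and 7.38 on the CD4-Vα14Tg arrays and 7.16 and 7.05 on the WT arrays. The genotypes did not overlap, but the nearest arrays were only 0.076 apart. The log2 difference was 0.20 (95% interval -0.09 to 0.49; 7.31 ± 0.10 against 7.11 ± 0.08, limma adjusted p = 0.643). The 95% interval of S1pr4 lies wholly below that of S1pr1, although the difference between the genes was not tested.

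Cd69 encodes the activation antigen that holds S1PR1 inside the cell. It read 10.61 and 10.25 on the CD4-Vα14Tg arrays and 10.86 and 10.78 on the WT arrays. Both CD4-Vα14Tg arrays lay below both WT arrays, by 0.17 at the nearest. The log2 difference was -0.39 (95% interval -0.74 to -0.04; 10.43 ± 0.25 against 10.82 ± 0.05, n = 2 arrays each). The unadjusted p of 0.0352 became a limma adjusted p of 0.361, and 11.7% of all genes tested had an unadjusted p under 0.05. Over the fits without 1 array, the Cd69 difference ranged from -0.57 to -0.21 and passed in 0 of 4.

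**Figure D2:**
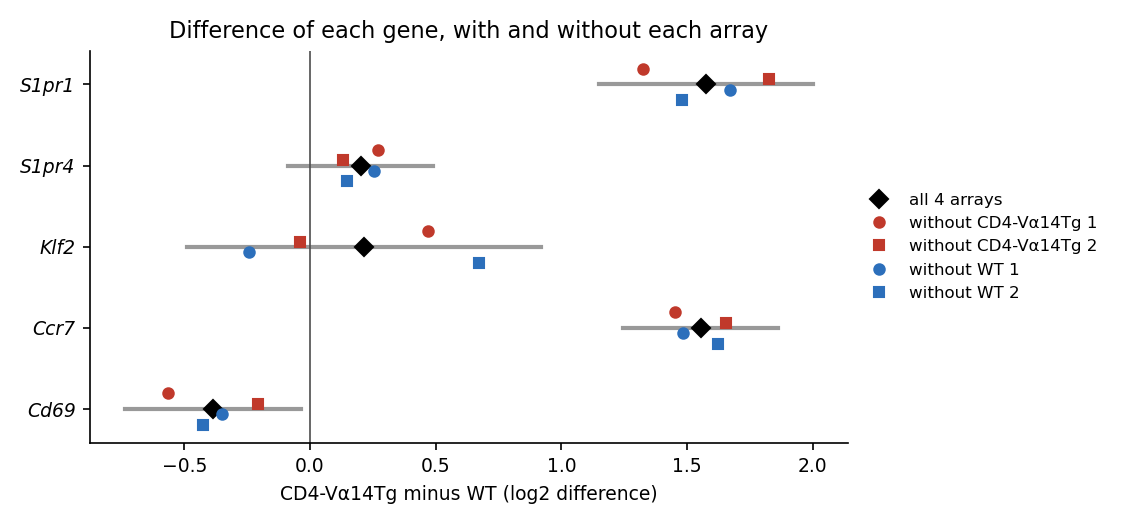
Log2 difference, CD4-Vα14Tg minus WT (horizontal axis), of each of the 5 genes (vertical axis). Diamonds are the fit of all 4 arrays with its 95% interval as a grey bar, and circles and squares are fits without 1 array; S1pr1 ranges from 1.32 to 1.82 and Ccr7 from 1.45 to 1.66, while Klf2 lies on both sides of 0, from -0.24 to 0.67.

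The other S1P receptor genes did not rise with S1pr1. S1pr2, which couples to inhibition of migration, read 6.63 and 6.69 on the CD4-Vα14Tg arrays and 7.26 and 7.02 on the WT arrays, a log2 difference of -0.48 (95% interval -0.79 to -0.17; limma adjusted p = 0.157). S1pr5, the egress receptor of NK cells, differed by -0.01 (limma adjusted p = 0.997), with values from 5.21 to 5.30, and S1pr3, a receptor of endothelial and stromal cells, lay below the filter at 3.18 to 3.34. Neither of the 2 tested genes passed.

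Genes that make, export and break down S1P showed no call. Of 10 tested, 0 rose and 0 fell, and the median log2 difference was -0.04. An unadjusted limma p under 0.05 was found for 1 of the 10, close to the share of 11.7% over all genes tested. The values nearest to a call were those of Plpp2, a lipid phosphate phosphatase, Sphk1, a kinase that makes S1P, and Sgpl1, the lyase that destroys it. They stood at -0.49, -0.25 and -0.15 (limma adjusted p = 0.192 for Plpp2, 0.512 for Sphk1 and 0.742 for Sgpl1). Plpp2 passed the filter only through the WT arrays, at 4.89 and 5.03. On the CD4-Vα14Tg arrays it lay below the 40th percentile, at 4.32 and 4.62, so its difference is set against background signal. Spns2, the S1P exporter of lymphatic endothelium, read from 6.02 to 6.29 over the arrays.

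Of 16 genes that couple S1PR1 and CCR7 to G proteins or take the receptors off the surface, 0 passed. Their median log2 difference was -0.06. An unadjusted limma p under 0.05 was found for 2 of the 16, close to the share of 11.7% over all genes tested. Those 2 were Rgs1 and Rgs16, genes of regulators of G protein signalling. Rgs1, which dampens chemokine responses and is high in tissue-bound lymphocytes, read 10.09 and 10.30 on the CD4-Vα14Tg arrays and 10.69 and 10.74 on the WT arrays (log2 difference -0.52, limma adjusted p = 0.118). Rgs16 read 8.08 and 6.96 against 8.74 and 8.43 (log2 difference -1.06, limma adjusted p = 0.222). CD4-Vα14Tg replicate 2 was the lowest array for Rgs16, and its difference was -1.62 when CD4-Vα14Tg replicate 1 was left out (limma adjusted p = 0.0121) against -0.50 when replicate 2 was (0.381). Rgs2 differed by -0.17 (limma adjusted p = 0.698), or by -0.28 with the mean of its 2 probe sets (0.490).

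The motility machinery that egress needs was measured in 13 genes, of which 0 passed and 0 had an unadjusted p under 0.05. By the brightest probe set of each gene, the log2 differences ran from -0.25 to 0.14 around a median of -0.05. Was, the actin regulator of Wiskott-Aldrich syndrome, was at the lower end (-0.25, limma adjusted p = 0.558), and the kinase gene Pak2 and the GTPase gene Rhoa differed by -0.16 and -0.15 (limma adjusted p = 0.729 and 0.759). Among dimmer probe sets, those of Rhoa differed by -0.41 and 0.09 and that of the GTPase gene Cdc42 by -0.46. Dock2, the exchange factor for RAC in lymphocytes, read from 10.75 to 10.96.

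Regulators upstream of Klf2 went both ways. Of 19 tested, 0 passed, 9 had a positive and 10 a negative difference, and the median was -0.003. In 4 of the 19 the unadjusted limma p was under 0.05, against a share of 11.7% over all genes tested. Foxo1, a transcription factor that switches on Klf2 and Ccr7 in resting T cells, came nearest: 9.26 and 9.42 on the CD4-Vα14Tg arrays against 8.79 and 8.72 on the WT arrays, a log2 difference of 0.58 (95% interval 0.29 to 0.87; limma adjusted p = 0.0721). All CD4-Vα14Tg arrays were above all WT arrays for Foxo1. Foxo1 has 2 probe sets, and these values are of the brighter; the other read from 6.60 to 6.78 and differed by -0.10. With the mean of both, the Foxo1 difference was 0.24 (limma adjusted p = 0.486), and with the trend and robust options of limma the brighter probe set passed (adjusted p = 0.0483). Mef2a, a MEF2 factor, read 9.84 and 9.67 against 10.17 and 10.31 (log2 difference -0.49, limma adjusted p = 0.142), and Fbxw7, a ubiquitin ligase subunit that targets KLF2, differed by 0.33 (limma adjusted p = 0.400).

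Among 14 other tested members of the KLF family, Klf12 rose and 0 fell. The unadjusted limma p was under 0.05 for 4 of the 14, against a share of 11.7% over all genes tested. Klf12, a transcriptional repressor, read 5.89 and 5.99 on the CD4-Vα14Tg arrays and 4.85 and 4.86 on the WT arrays. The log2 difference was 1.08 (95% interval 0.81 to 1.36), or 2.11-fold (limma adjusted p = 0.00663). Its WT values were close to the 40th percentile, so the fold is set against near-background signal. Klf10, a gene induced by TGF-β, differed by -0.84 (limma adjusted p = 0.141), Klf8 by 0.63 (limma adjusted p = 0.282) and Klf9 by -0.38 (limma adjusted p = 0.368). Both Klf10 and Klf8 depended on single arrays. Klf10 was -1.19 when CD4-Vα14Tg replicate 1 was left out (limma adjusted p = 0.0215) and -0.50 when CD4-Vα14Tg replicate 2 was (0.301). Klf8 was 0.98 when WT replicate 2 was left out (limma adjusted p = 0.0413) and 0.28 when WT replicate 1 was (0.641).

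Of 11 lymph node entry genes, 1 rose and 0 fell. The list median was -0.16, and 3 of the 11 had an unadjusted limma p under 0.05, against a share of 11.7% over all genes tested. Itga4, the α4 integrin chain that pairs with β1 and β7, was 10.29 and 10.33 on the CD4-Vα14Tg arrays against 8.16 and 8.64 on the WT arrays (3.76-fold, limma adjusted p = 0.00326). Itgb7, its β7 partner and a gene linked to KLF2, differed by 0.08 (limma adjusted p = 0.920). Cxcr4, the receptor for CXCL12, read 9.54 and 8.81 against 8.61 and 8.59, so that CD4-Vα14Tg replicate 1 stood apart (log2 difference 0.58, limma adjusted p = 0.365). Without CD4-Vα14Tg replicate 2, Cxcr4 was at 0.94 (limma adjusted p = 0.0426), and without CD4-Vα14Tg replicate 1 at 0.21 (0.751). Cxcr5, the follicle homing receptor, differed by -0.57 (limma adjusted p = 0.128), and Gcnt1, an enzyme that modifies selectin ligands, by -0.31 (limma adjusted p = 0.465).

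The ligand side of Ccr7 was represented by 2 atypical chemokine receptors. Ccrl2, a chemerin-binding receptor, fell 2.48-fold, from 8.22 and 8.26 on the WT arrays to 7.10 and 6.76 on the CD4-Vα14Tg arrays (limma adjusted p = 0.00721). Ackr4, which scavenges the ligands of CCR7, lay below the filter at 3.86 to 4.41. The probe sets of CCL19 and CCL21 are shared between gene copies and were not used.

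**Figure D3:**
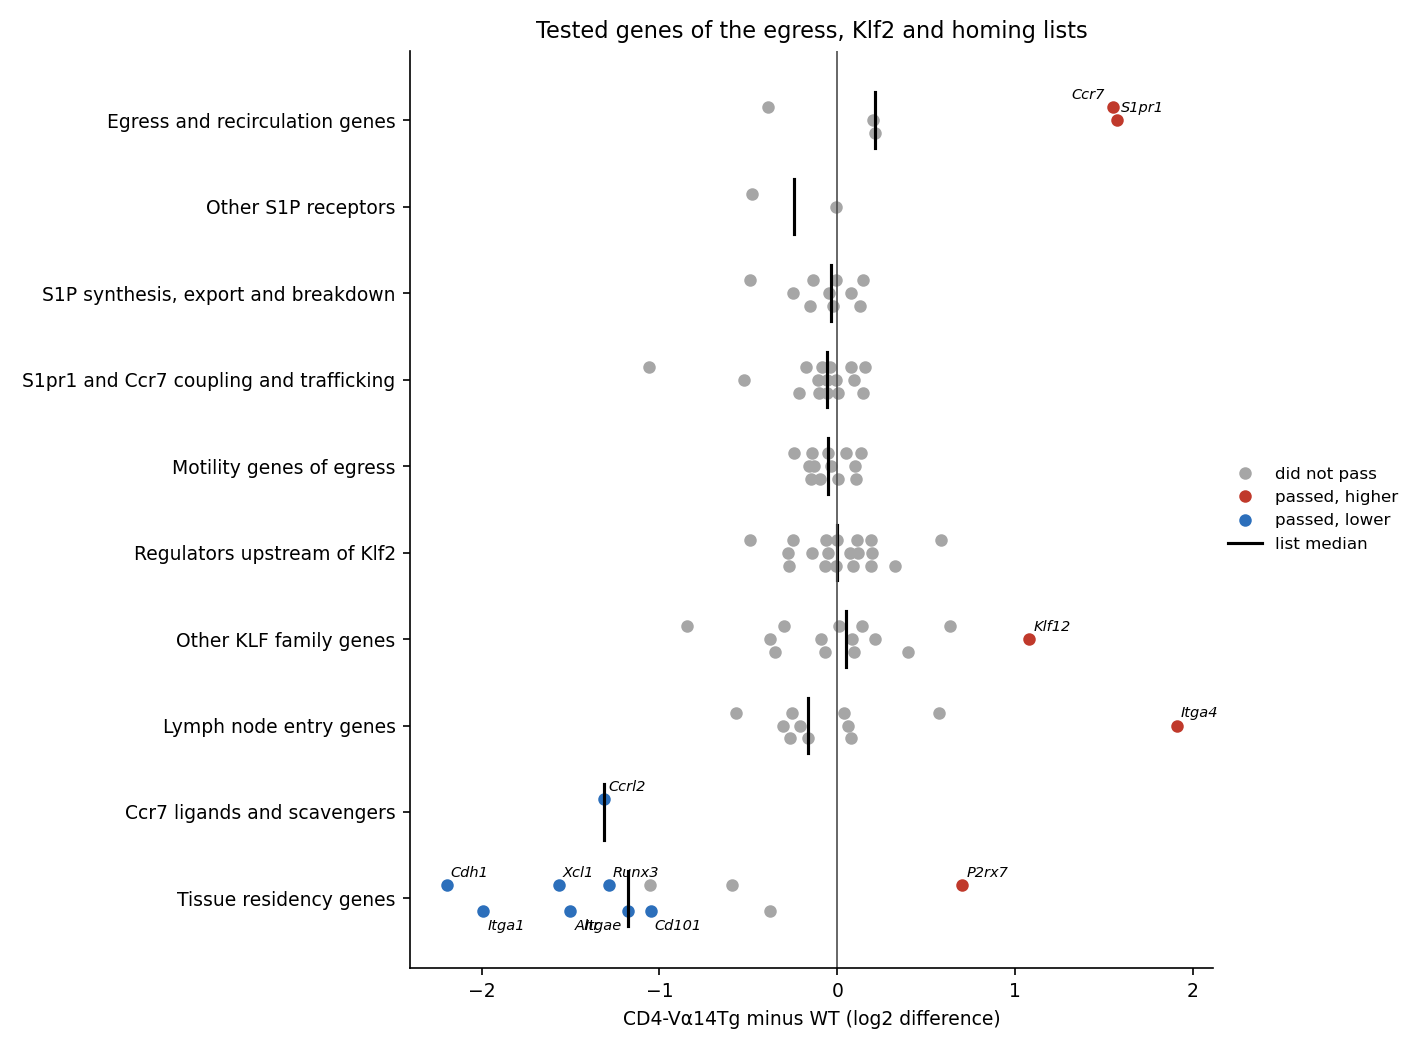
Log2 difference, CD4-Vα14Tg minus WT (horizontal axis), of every tested gene of each list (vertical axis); red and blue points passed limma's test, higher and lower, grey points did not, and black bars are list medians. The 7 blue points of the tissue residency list lie on the other side of 0 from S1pr1 and Ccr7, and the S1P, coupling, motility and upstream lists hold no coloured point.

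Genes linked to residence in tissue, the opposite behaviour to recirculation, were mostly lower. Falls were called for 7 of the 11 tested and a rise for 1, where 1.34% of all genes tested were called lower and 0.61% higher. The list median was -1.18 on the log2 scale, against -0.022 over all genes tested. This list was chosen with earlier results of these data known. Cdh1, the gene of E-cadherin, fell 4.58-fold by the brighter of its 2 probe sets (6.41 and 6.61 against 8.69 and 8.72, limma adjusted p = 5.82e-04). The other Cdh1 probe set read from 4.25 to 4.77, and with the mean of both the log2 difference was -1.30 instead of -2.20 (limma adjusted p = 0.00377). Itga1, the α1 chain of a collagen-binding integrin, fell 3.97-fold. Xcl1, a chemokine gene, fell 2.96-fold, Ahr, the aryl hydrocarbon receptor, 2.83-fold, and Runx3, a transcription factor of tissue-resident CD8 cells, 2.44-fold. Itgae, whose αE chain binds E-cadherin, fell 2.26-fold (limma adjusted p = 0.0169, and 0.0511 without WT replicate 1), and the surface protein gene Cd101 fell 2.07-fold.

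The member that rose was P2rx7, an ATP-gated channel of resident and regulatory T cells, at 1.63-fold (8.39 and 8.26 against 7.52 and 7.72, limma adjusted p = 0.0497). P2rx7 no longer passed once any array was dropped (limma adjusted p from 0.087 to 0.185), nor with all genes tested (0.0661) or arrays centred on their medians (0.0526). Prdm1, the gene of the repressor BLIMP-1, had 5.62 and 5.60 against 6.20 and 6.20 (log2 difference -0.59, limma adjusted p = 0.0547). It passed with the filter at the 60th percentile (limma adjusted p = 0.0382). Bhlhe40 differed by -1.05 (limma adjusted p = 0.0836) and reached -1.37 once CD4-Vα14Tg replicate 1 was left out (limma adjusted p = 0.0294), and ranged from -1.25 to -0.73 with other arrays left out (0.0876 to 0.233). Cxcr6, a receptor that keeps iNKT cells in the liver, overlapped between genotypes, at 9.56 and 9.91 against 9.91 and 10.32 (log2 difference -0.38, limma adjusted p = 0.512).

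Markers of other cells that carry S1pr1, Klf2 or Ccr7 were read on the same arrays. Of 6 tested CD8 and naive T cell markers, 3 rose and 0 fell, where 0.61% of all genes tested were called higher. The 3 were Igfbp4 (3.92-fold), Treml2 (1.81-fold) and the Wnt pathway factor gene Lef1 (1.79-fold). The summed level of the 8 markers on the linear scale was 4810 to 4940 on the CD4-Vα14Tg arrays and 2810 to 3100 on the WT arrays. Only 1 of these markers passed when CD4-Vα14Tg replicate 1, WT replicate 1 or CD4-Vα14Tg replicate 2 was left out. Cd8a was below the filter, and Cd8b1 read from 5.24 to 5.52 and differed by -0.09. The part of naive T cells in the rise of S1pr1 and Ccr7 was not tested.

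The other lists gave few calls. Of 7 B cell markers with a probe set, 6 lay below the filter, including Ms4a1 at 3.17 to 3.39, and the summed level was 139 to 145 on the CD4-Vα14Tg arrays and 116 to 144 on the WT arrays. Of 7 dendritic cell markers, 4 lay below it, including H2-Aa at 3.60 to 3.86, and the sum was 1610 to 1730 against 1840 to 2340. Cd209a supplied most of that sum, at 10.53 to 11.10 for the brighter of its 2 probe sets and 4.13 to 4.61 for the other. Of 8 endothelial markers, 5 lay below it, including Cdh5 at 3.96 to 4.44. The sum, mostly from Pecam1, which T cells also express, was 704 to 717 against 525 to 549. The 3 tested, Pecam1, Tie1 and Kdr, were higher on every CD4-Vα14Tg array than on any WT array. The nearest arrays were 0.435, 0.185 and 0.059 apart, and 39.1% of all genes tested did not overlap between genotypes. The log2 differences of Pecam1, Tie1 and Kdr were 0.48, 0.30 and 0.235 (limma adjusted p = 0.116, 0.428 and 0.6). Tie1 read 4.74 and 4.75 on the CD4-Vα14Tg arrays and 4.33 and 4.55 on the WT arrays. It passed the filter only through the CD4-Vα14Tg arrays and lay below the 40th percentile on the WT arrays. Pecam1 and Tie1 had an unadjusted limma p under 0.05 (0.00421 and 0.0499), as 11.7% of all genes tested had. That of Tie1 is set against background signal. The macrophage list summed to 160 to 162 against 157 to 159 and the stromal list to 202 to 209 against 193 to 200. No marker of these 5 lists passed, and the part of such cells in the rise of S1pr1 and Ccr7 was not tested. Of the thymocyte precursor list, Themis rose 3.18-fold, while Rag2, Dntt and Cd24a lay below the filter. Ptcra, the other tested marker, differed by 0.12 on the log2 scale (limma adjusted p = 0.921). The sum of this list was 449 to 502 against 223 to 251, and Themis supplied most of it on the CD4-Vα14Tg arrays. Among 7 iNKT and T cell markers, Il2rb fell 1.74-fold (limma adjusted p = 0.0427) but passed in 0 of 4 fits without 1 array, and the sum was 15600 to 16700 against 17100 to 19200.

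Genes with values most like those of S1pr1, Ccr7 and Cd69 were ranked by the Euclidean distance between log2 values over the 4 arrays, each gene centred on its own mean. Of 11924 other protein-coding genes with an established symbol, the nearest to S1pr1 was Ccr7, at a distance of 0.31. Next came Lztfl1, a protein of ciliary trafficking, at 0.42, Robo1, a SLIT receptor, at 0.45, the tetraspanin gene Tspan9 at 0.49 and the Fc receptor-like gene Fcrl1 at 0.52. All 5 were higher in CD4-Vα14Tg cells, and the centred value of S1pr1 was above that of each of them on CD4-Vα14Tg replicate 1. Nearest to Ccr7 were Tns4, a focal adhesion gene, at 0.23, Ccr9, the gut and thymus homing receptor, at 0.25, Tspan9 at 0.25, Lztfl1 at 0.26 and Themis at 0.31.

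Cd69 had closer neighbours. Ralgds, an exchange factor for RAL GTPases, lay at 0.04, Prrc1 and Apol9b at 0.05, and the retromer subunit gene Vps29 at 0.06. Ezr, which links the membrane to actin, lay at 0.07, with 10.31 and 10.03 on the CD4-Vα14Tg arrays and 10.58 and 10.48 on the WT arrays. None of these 5 passed limma's test (adjusted p from 0.332 to 0.441). With 4 arrays and 2 genotypes, a shared profile and a like size of the genotype difference cannot be told apart.

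**Figure D4:**
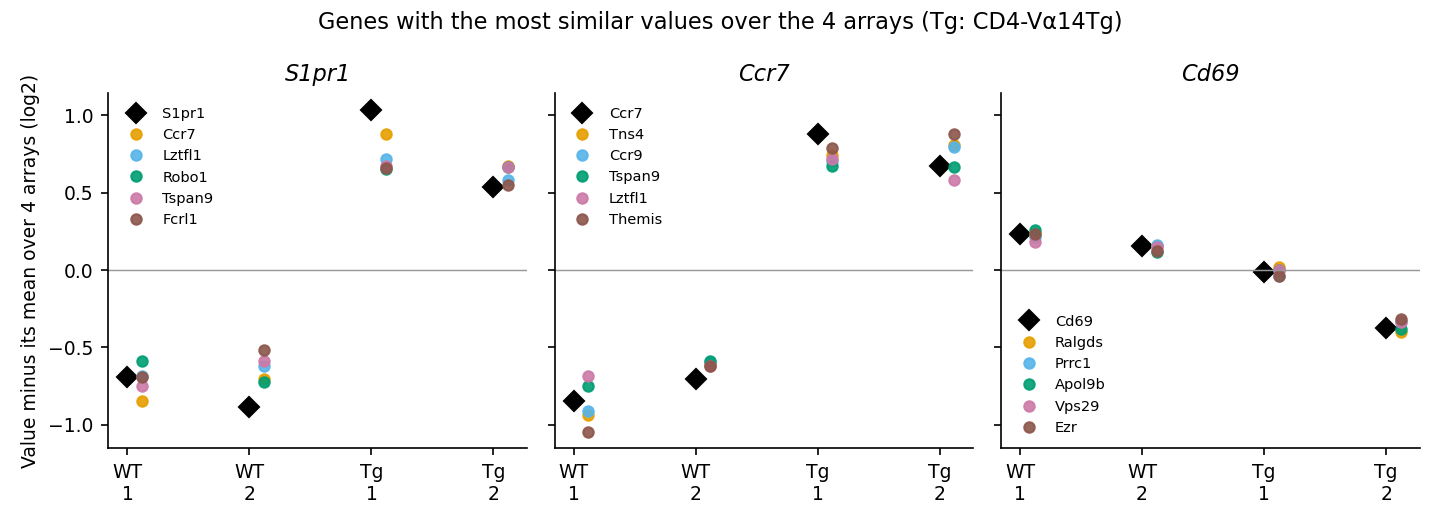
Log2 value minus its mean over the 4 arrays (vertical axis) on each array (horizontal axis; Tg stands for CD4-Vα14Tg) for S1pr1, Ccr7 and Cd69 (black diamonds) and the 5 genes with the smallest distance to each (coloured points). S1pr1 and Ccr7 are high on both CD4-Vα14Tg arrays, and Cd69 is lowest on CD4-Vα14Tg replicate 2, at 10.25.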

How the data were processed

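The authors deposited log2 values, 1 per probe set and array, made with RMA and Affymetrix Power Tools per the submitters' processing notes. Versions and build: not given in the sources used here. That they are log2 follows from their range (array medians 5.04 to 5.07). RMA makes the arrays' distributions alike, so a change of total RNA cannot be seen, and differences near background are compressed. The number of arrays limits precision.

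Of 41345 probe sets, 23521 had 1 gene symbol in the platform annotation, 1814 several and 16010 none. For 1082 genes with more than 1 probe set, the brightest on average was kept. Genes at or above the 40th percentile on at least 2 arrays were tested, and 8578 were set aside as dim. CD4-Vα14Tg was compared with WT by limma 3.58.1 in R 4.3.3 (lmFit, eBayes, two-sided, Benjamini-Hochberg over all 13602 genes, threshold 0.05), and every adjusted p is from such a fit. The pipeline was tested on simulated data. Tables used Python 3.11.15 and pandas 2.3.3, and plots matplotlib 3.10.9.

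The members, lists and tests were chosen with earlier results of these data known. Genes named were the members, list genes that passed, up to 3 others per pathway list by absolute moderated t, and the 5 nearest profiles of 3 members; Spns2, Dock2, Itgb7, dim genes and marker genes that did not pass were named after their values were seen. List genes without a probe set of their own were not analysed here. Alternatives were leaving out each array, other filters, normalizations, probe set averaging, eBayes options and a replicate block.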

Additional observations from a re-analysis of the deposited data

How the results depend on the processing

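S1pr1 and Ccr7 passed limma's test in all 11 alternatives, and S1pr4, Klf2 and Cd69 in none. The differences without 1 array ranged from 1.32 to 1.82 for S1pr1, 1.45 to 1.66 for Ccr7, 0.13 to 0.27 for S1pr4, -0.24 to 0.67 for Klf2 and -0.57 to -0.21 for Cd69. In these fits the lone array of a genotype is assumed to vary like the other genotype. Klf2 changed sign without WT replicate 1 (-0.24) and without CD4-Vα14Tg replicate 2 (-0.04), and S1pr5, at -0.01 with all arrays, ranged from -0.058 to 0.039. The count of genes called, 265 with all arrays, dropped with fewer arrays in the fit: to 169 and 166 without CD4-Vα14Tg replicates 1 and 2, and to 221 and 166 without WT replicates 1 and 2. It was 674 with the replicate number as a block, and 222 to 320 under the other alternatives. The labels do not say that a replicate number marks a shared day or batch, and the deviations of same-numbered arrays correlated at 0.26 over genes, so the block shows only how the count moves; with it, Foxo1, Rgs1, Rgs16, Klf10, Prdm1 and Bhlhe40 passed (limma adjusted p from 0.00209 to 0.0435) and no call among the 5 members changed. Among the genes followed through the alternatives, 29 kept direction and call in all that tested them.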
